A study of Mus musculus with 54 samples.

Results

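The casein genes are the 5 mouse genes *Csn1s1*, *Csn2*, *Csn1s2a*, *Csn1s2b* and *Csn3*. They were taken as all probe sets, the groups of short oligonucleotides that together report 1 transcript on an Affymetrix array, to which the platform annotation gave exactly 1 symbol and that symbol was one of these names. Each gene had 1 such probe set, so the caseins were 5 of the 12422 non-control probe sets and 5 of the 8251 genes with a single-symbol probe set. All 5 passed the filter on dim probe sets, which kept 8640. Their NCBI Gene identifiers are 12990 for *Csn1s1*, 12991 for *Csn2*, 12993 for *Csn1s2a*, 12992 for *Csn1s2b* and 12994 for *Csn3*.

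The study followed the mouse mammary gland through a cycle of development with 54 arrays, 1 for each mouse, and 3 mice at each of 18 time points. RNA came from whole inguinal glands with the lymph node taken out, so every sample holds epithelium together with fat, connective tissue, vessels and immune cells. The groups were virgins at 6, 10 and 12 weeks of age, pregnant mice at days 1, 2, 3, 8.5, 12.5, 14.5 and 17.5, lactating mice at days 1, 3 and 7, and mice in involution at days 1, 2, 3, 4 and 20. Pregnant mice had been mated when 12 weeks old, and involution was set off by removing the litter on the seventh day of lactation. No genotype, strain or drug treatment is given for any group. Because the glands were measured in bulk, fewer casein-producing cells and less casein RNA in each such cell cannot be told apart.

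Caseins are the main proteins of milk and are secreted by the luminal alveolar cells of the gland as micelles that carry calcium and phosphate to the young. *Csn1s1* encodes alpha-s1-casein, *Csn2* beta-casein, and *Csn1s2a* and *Csn1s2b* a pair of alpha-s2-like caseins (gamma and delta casein), all of them phosphoproteins that bind calcium. *Csn3* encodes kappa-casein, which coats the micelle, keeps it from clumping and belongs to a different protein family. Transcription of the caseins is driven mainly by prolactin through its receptor, the kinase JAK2 and the factor STAT5, with help from the glucocorticoid receptor, C/EBP-beta and ELF5, while progesterone holds back full milk secretion until birth.

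The 5 genes lie together on mouse chromosome 5 in the order *Csn1s1*, *Csn2*, *Csn1s2a*, *Csn1s2b*, *Csn3*, within 266343 bases of the GRCm38.p6 assembly. *Csn1s1* spans chr5:87666208-87682578 and *Csn2* spans chr5:87692619-87699429. *Csn1s2a* spans chr5:87774450-87788798, *Csn1s2b* spans chr5:87808121-87824421 and *Csn3* spans chr5:87925579-87932550. The RefSeq gene table lists 7 other genes between *Csn1s1* and *Csn3*. Of these and the 5 genes on each side of the cluster, 17 in all, 4 had a probe set (*Sult1b1*, *Sult1d1*, *Smr3a* and *Smr2*) and none of the 4 passed the filter on dim probe sets. The summed signal of those 4 neighbours in single mice ran from 37.6, where all 4 are at the floor described below for dim signals, to 64.5 in 1 mouse of lactation day 7.

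The 250 bases before the start of the gene are shown for *Csn1s1*, *Csn2* and *Csn1s2a*, the caseins with a promoter entry, to set their proximal promoters side by side. They come from the RefSeq promoter table for GRCm38.p6, which matched 3 of the 5 caseins. *Csn1s2b* and *Csn3* are named only. The windows are chr5:87665958-87666207 on the plus strand for *Csn1s1*, chr5:87699426-87699675 on the minus strand for *Csn2* and chr5:87774200-87774449 on the plus strand for *Csn1s2a*. The *Csn2* window holds 4 bases of the outermost RefSeq gene model. Each is written 5′ to 3′ with matches to TTCNNNGAA, the palindrome recognised by STAT factors, in capitals:
Csn1s1: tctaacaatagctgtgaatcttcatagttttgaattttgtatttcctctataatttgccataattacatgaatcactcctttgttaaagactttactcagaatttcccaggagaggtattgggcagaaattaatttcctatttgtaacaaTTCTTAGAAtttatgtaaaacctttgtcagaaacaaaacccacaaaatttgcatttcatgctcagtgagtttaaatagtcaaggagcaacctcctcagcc
Csn2: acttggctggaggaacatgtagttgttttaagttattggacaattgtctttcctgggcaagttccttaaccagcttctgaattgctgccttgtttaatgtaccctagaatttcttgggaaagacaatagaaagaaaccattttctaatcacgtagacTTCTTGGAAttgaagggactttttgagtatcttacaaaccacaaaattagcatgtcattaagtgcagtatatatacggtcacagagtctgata
Csn1s2a: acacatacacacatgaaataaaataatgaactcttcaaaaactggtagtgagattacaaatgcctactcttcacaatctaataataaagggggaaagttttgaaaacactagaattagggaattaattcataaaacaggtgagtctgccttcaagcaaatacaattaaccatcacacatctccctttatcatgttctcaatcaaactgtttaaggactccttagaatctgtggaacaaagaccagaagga
*Csn1s1* holds 1 match, TTCTTAGAA, from base -100 to base -92 counted back from the start. *Csn2* holds 1 match, TTCTTGGAA, from base -93 to base -85. The *Csn1s2a* window has no match, which says only that these letters are not in these 250 bases. Such a match is in 7.02% of the 32851 promoter windows of the table. All motifs were searched on both strands. TATAAA, a form of the TATA box, had no match in the 3 caseins and is in 12.4% of all windows. Only these exact letters were searched, so variants of the TATA box were not counted. TTGCNNAA, a form of the C/EBP site, had no match and is in 9.56%. TGTTCT, a glucocorticoid receptor half-site, had 1 match, in *Csn1s2a* from base -59 to base -54, and is in 16.1%. None of these motifs overlapped another in the 3 windows.

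The values are MAS5 signals, the Affymetrix estimate of a probe set's brightness, as the submitters deposited them. The mean after trimming the brightest and dimmest probe sets was between 100.05 and 100.07 on every array, so the arrays share a scale, and their median signals ran from 31.8 to 44.6. Signals under 9.4 were set to 9.4 and the log2 was taken. Over probe sets, the log2 signals of 2 arrays from 1 time point had correlations between 0.875 and 0.975, and no arrays were identical. The table gives no detection or saturation flags. The precision is limited by the number of arrays, 3 for each time point.

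All 5 caseins changed over the 18 time points by limma's F test at an adjusted p under 0.05, as did 88.1% of all probe sets kept. Every casein had its highest mean on lactation day 7. The highest arithmetic mean signal of a time point was 521 times the lowest for *Csn2*, 91.5 times for *Csn1s1* and 30.9 times for *Csn3*. It was at least 904 times the lowest for *Csn1s2b* and at least 817 times for *Csn1s2a*, both bounds because mice under the floor enter their lowest means, so those 2 spans have no order. The caseins together made up 0.0455% ± 0.0105 (SD, n = 3) of the summed signal of all non-control probe sets in 6-week virgins and 2.73% ± 0.0745 (SD, n = 3) on lactation day 7. On involution day 20 the share was 0.605% ± 0.0809 (SD, n = 3).

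**Figure D1:**
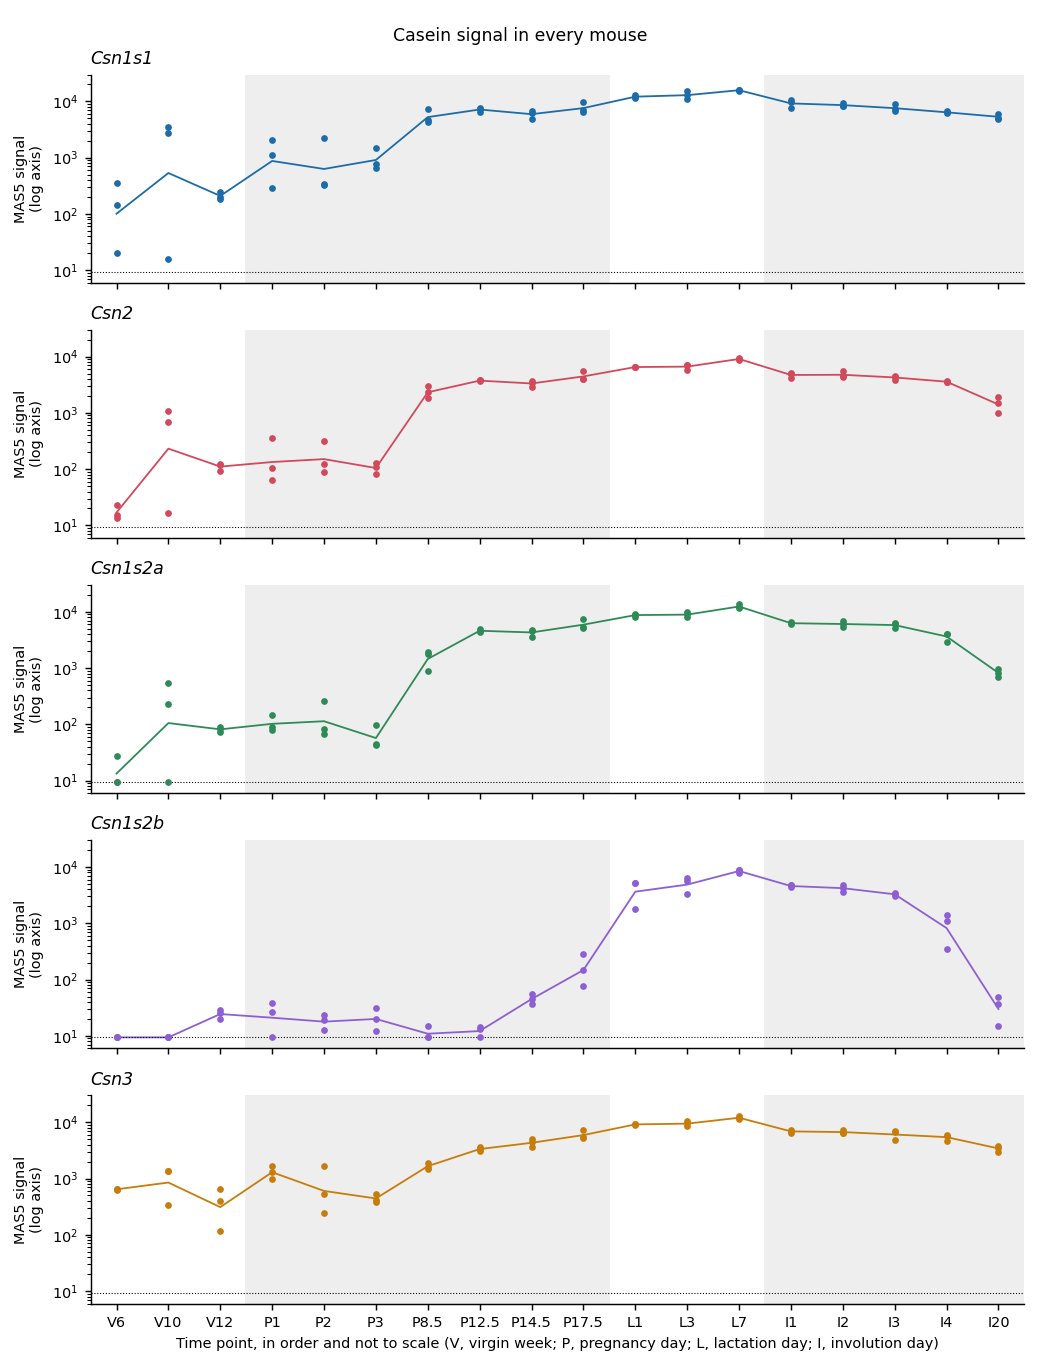
MAS5 signal (log axis) of each casein against the 18 time points in order, with 1 point for each of 54 mice, a line through the geometric means and a dotted line at the floor of 9.4; grey bands mark pregnancy and involution. *Csn1s1*, *Csn2*, *Csn1s2a* and *Csn3* climb by pregnancy day 8.5, while *Csn1s2b* stays at or under 37.6 until pregnancy day 12.5 and climbs most between pregnancy day 17.5 and lactation day 1.

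In virgins, *Csn2*, *Csn1s2a* and *Csn1s2b* were higher at 12 weeks than at 6 weeks. *Csn2* signals were 13.4, 15.6 and 23.2 in the 6-week mice and 91.0, 124.6 and 120.5 in the 12-week mice. *Csn1s2a* signals were 2.1, 3.5 and 26.9 at 6 weeks and 73.6, 82.8 and 88.9 at 12 weeks. *Csn1s2b* signals were 4.9, 0.7 and 1.6, all under the floor, at 6 weeks and 19.6, 28.9 and 25.7 at 12 weeks. For each of these 3 genes every 12-week mouse lay above every 6-week mouse. Here and below, separation of mice is a description only. The share of all probe sets that separate in this way was not worked out. The log2 difference was 2.71 ± 0.67 (SE) for *Csn2* with an adjusted p of 0.0031, from limma. For *Csn1s2a* it was at least 2.61 (fitted SE 0.64, adjusted p = 0.0026), since 2 of the 3 younger mice were set to the floor. *Csn1s2b* was at least 2.60-fold higher against the floor (adjusted p = 0.018), and with the floor at the 40th percentile of the table its log2 difference shrank to 0.17 (adjusted p = 0.78, with a range of 3.4e-05 to 0.78 over its alternatives). Its call was also lost without mouse B of week 12. The count of 3 of 5 caseins called higher stands beside 17.2% of all probe sets called higher in this comparison.

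*Csn1s1* and *Csn3* did not pass the test between these ages. *Csn1s1* signals were 20.2, 144.4 and 353.0 at 6 weeks and 185.6, 203.9 and 241.2 at 12 weeks, so the ages overlapped. *Csn3* signals were 625.4, 664.0 and 638.6 at 6 weeks and 391.9, 115.0 and 661.1 at 12 weeks, a log2 difference of -1.05 ± 0.42 (SE) with an adjusted p of 0.055. *Csn3* was called lower with median scaling, with array quality weights and without mouse C of week 12. *Csn3* was therefore the casein that was already well above the floor in all 3 of the youngest mice. Markers of luminal epithelium moved with the 3 caseins that rose: 9 of the 12 measured markers were called higher at 12 weeks, against the same 17.2% of all probe sets, and their summed signal went from between 1520 and 1669 at 6 weeks to between 2874 and 4742. Beta-actin signal at the 3′ end divided by that at the 5′ end, a ratio that is higher where RNA is more degraded, was 3.75 ± 0.363 (SD, n = 3) at 6 weeks and 1.99 ± 0.487 (SD, n = 3) at 12 weeks. The part of either in the result was not tested apart from the covariate fits: with beta-actin or with *Krt8* and *Krt18* as a covariate, 2 of the 3 calls remained in each fit and that of *Csn1s2b* was lost.

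At 10 weeks the log2 signals of *Csn1s1*, *Csn2* and *Csn1s2a* were more spread among the 3 mice than at any other time point. *Csn1s1* signals were 3445.5, 2750.1 and 16.0 in mice A, B and C. *Csn2* signals were 1065.3, 702.2 and 16.5 in the same order, and *Csn1s2a* signals were 545.0, 228.9 and 3.5. *Csn3* signals were 1340.5, 1364.2 and 333.2. Mice A and B were thus high and mouse C low for these 4 caseins. *Csn1s2b* was under the floor in all 3, at 6.1, 5.8 and 1.9. The beta-actin 3′ to 5′ ratio was 3.92, 3.27 and 1.09 in mice A, B and C, and the *Krt18* signal was 318, 381.3 and 876.5. Mouse C therefore had the lowest casein signal, the lowest beta-actin ratio and the highest *Krt18*, and the part of RNA quality or epithelial content in this split was not tested.

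Over the first 3 days of pregnancy the caseins varied between mice. Days 1 and 2 entered no pairwise comparison, so of these days only day 3 was tested against 12-week virgins. *Csn1s1* signals were 2067.1, 286.5 and 1126.6 on day 1, 2249.6, 328.1 and 338.3 on day 2 and 659.6, 779.6 and 1464.9 on day 3. *Csn3* signals were 1283.9, 992.5 and 1702.2 on day 1, 1672.0, 245.4 and 530.5 on day 2 and 530.8, 389.2 and 417.8 on day 3. Every mouse of day 1 thus lay above every mouse of day 3 for *Csn3*. Each also lay above the 12-week virgins, at 115.0 to 661.1. Neither difference was tested. *Csn2* ranged from 65.4 to 352.0 over these 3 days, *Csn1s2a* from 42.5 to 262.4 and *Csn1s2b* from 8.0 to 37.6. From week 12 of virginity to pregnancy day 3, 0 of 5 caseins passed the test, against 4.24% of all probe sets called in either direction. At an unadjusted p under 0.05 the count was 1. Here and below, the share of all probe sets at an unadjusted p under 0.05 was not worked out. The printed shares are at an adjusted p and are no background for the unadjusted counts. Only *Csn1s1* had no overlap of mice in this comparison, at 185.6 to 241.2 in 12-week virgins and 659.6 to 1464.9 on day 3. Its log2 difference was 2.12 ± 0.96 (SE) with an adjusted p of 0.22.

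The standard error of *Csn1s1*, shared by all comparisons of that gene, reflects the spread of the early mice. The SD of its log2 signal was 4.38 at 10 weeks of virginity and 2.11 at 6 weeks, and at most 0.61 at 12 weeks and at every time point from pregnancy day 3 on. A fit without virgin weeks 6 and 10 and pregnancy days 1 and 2, chosen after those spreads were seen, gave *Csn1s1* a standard error of 0.21 and *Csn2* one of 0.19. In that fit *Csn1s1* was called higher on day 3 than at 12 weeks (adjusted p = 2e-08, with a range of 2e-08 to 0.51 over its alternatives), as it was with array quality weights and in a fit of only the 6 arrays compared. Where the call depends on this choice, both counts are given below.

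Between pregnancy days 3 and 8.5 *Csn2*, *Csn1s2a* and *Csn3* rose, and *Csn1s1* was higher in every mouse without passing the test. *Csn2* signals were 82.5, 107.7 and 129.2 on day 3 and 1805.9, 2314.5 and 2994.4 on day 8.5. *Csn1s2a* signals were 42.5, 44.9 and 97.6 on day 3 and 904.8, 1760.3 and 1922.4 on day 8.5. *Csn3* signals were 530.8, 389.2 and 417.8 on day 3 and 1492.6, 1610.9 and 1890.3 on day 8.5. All mice on day 8.5 were above all mice on day 3 for each of these genes. *Csn2* was 22.2-fold higher, a log2 difference of 4.47 ± 0.67 (SE) with an adjusted p of 9.4e-05. *Csn1s2a* was 25.4-fold higher (4.67 ± 0.64 SE on the log2 scale, adjusted p = 2.6e-05) and *Csn3* was 3.75-fold higher (1.91 ± 0.42 SE, adjusted p = 0.0032). These 3 calls stand beside 5.39% of all probe sets called higher.

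*Csn1s1* signals went from 659.6, 779.6 and 1464.9 to 4242.7, 4608.1 and 7417.6 in the same interval. No mouse overlapped, and the log2 difference was 2.53 ± 0.96 (SE) with an adjusted p of 0.059. Without the 4 early time points *Csn1s1* was called as well (adjusted p = 2e-10, with a range of 2e-10 to 0.33 over its alternatives). That gave 4 of 5 caseins, beside 6.52% of all probe sets called higher in that fit. It was also called with the floor at the 40th percentile, median scaling, array quality weights and beta-actin as a covariate. *Csn1s2b* signals were 20.2, 12.4 and 31.8 on day 3 and 7.5, 4.2 and 14.7 on day 8.5, with 2 of the 3 later mice under the floor. The luminal markers gave other values here: 0 of 12 were called higher and 4 were called lower (*Cdh1*, *Cldn3*, *Cldn4* and *Elf3*), against 5.39% and 12.5% of all probe sets. Their summed signal was between 3742 and 4739 on day 3 and between 1924 and 2838 on day 8.5. Dividing every array by its median moved the median of all probe sets in this comparison by 0.35 on the log2 scale, and 4 caseins were then called higher.

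From day 8.5 to day 12.5 of pregnancy, *Csn1s2a* had the largest difference of the 5. Its signals were 4446.1, 4864.3 and 4517.9 on day 12.5, all above those of day 8.5, a 3.17-fold difference (1.67 ± 0.64 SE on the log2 scale, adjusted p = 0.38). *Csn2* signals were 3633.2, 3785.5 and 3806.8 and *Csn3* signals were 3611.1, 3352.7 and 3068.9, likewise above all mice of day 8.5. *Csn1s1* signals were 7286.7, 7661.8 and 6603.7 and overlapped with day 8.5. No casein passed the test, against 0.347% of all probe sets called in either direction. At an unadjusted p under 0.05, a looser threshold than that of the share, 2 did. Without the 4 early time points *Csn1s2a* was called higher (adjusted p = 3.1e-05, with a range of 3.1e-05 to 0.84 over its alternatives), beside 0.440% of all probe sets in that fit. With array quality weights *Csn1s2a* and *Csn3* were.

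Between days 12.5 and 17.5 of pregnancy *Csn1s2b* had the largest differences of the 5, and all its mice lay higher at each step. *Csn1s2b* signals were 5.4, 13.3 and 14.4 on day 12.5, 44.6, 55.7 and 36.7 on day 14.5 and 281.4, 150.0 and 76.5 on day 17.5. The mice of these 3 days did not overlap. The log2 difference was at least 1.89 (fitted SE 0.44), with 1 mouse of day 12.5 set to the floor, for the first step (adjusted p = 0.060) and 1.72 ± 0.44 (SE) for the next (adjusted p = 0.061). Neither step passed the test for any casein, against 0.150% and 0.417% of all probe sets called in either direction. At an unadjusted p under 0.05 the counts were 1 and 1. With array quality weights both steps were called for *Csn1s2b*. The first was also called with median scaling, and the later step with the floor at the 40th percentile and without mouse C of day 17.5, whose *Csn1s2b* signal was the lowest of that day. The other 4 caseins differed by between -0.28 and 0.37 on the log2 scale in the first step and by 0.36 to 0.46 in the next. Mouse C of day 17.5 had the highest *Csn1s1*, *Csn2*, *Csn1s2a* and *Csn3* of its group, at 9798.1, 5581.4, 7376.1 and 7212.3, beside its lowest *Csn1s2b*.

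Across birth, from pregnancy day 17.5 to lactation day 1, *Csn1s2b* rose 24.7-fold. Its signals were 1811.4, 5180.4 and 5161.8 on lactation day 1, against at most 281.4 before birth. The log2 difference was 4.62 ± 0.44 (SE) with an adjusted p of 4.8e-10. The 4 other caseins were also above their prenatal values in every mouse, by 1.47-fold for *Csn2*, 1.48-fold for *Csn1s2a*, 1.55-fold for *Csn3* and 1.60-fold for *Csn1s1*, but did not pass the test. *Csn1s1* signals were 13164.5, 11326.7 and 11962.7 on lactation day 1, and *Csn3* signals were 9310.8, 9330.1 and 8825.4. The 1 casein called higher stands beside 10.1% of all probe sets. Without the 4 early time points 3 caseins were called (*Csn1s1*, *Csn2* and *Csn1s2b*), beside 11.6% of all probe sets called higher in that fit. Quantile normalization, which gives every array the same spread of signals, kept the difference of *Csn1s2b* at 4.43 but left 0.08 for *Csn1s1*, 0.34 for *Csn2*, 0.17 for *Csn1s2a* and 0.27 for *Csn3*. In the same interval 6 of 8 white adipocyte markers and 6 of 8 fibroblast markers were called lower, against 13.2% of all probe sets, and the summed fibroblast signal went from between 5209 and 8867 to between 3172 and 3722. Of the luminal markers 1 of 12 was called higher (*Muc1*) and 3 were called lower (*Cldn3*, *Krt18* and *Krt7*), with a list median of -0.37 on the log2 scale. Mean *Krt8* went from 1095 to 769 and mean *Krt18* from 872 to 451. The summed luminal signal was between 4436 and 6094 on pregnancy day 17.5 and between 6254 and 8053 on lactation day 1. That sum includes *Muc1*, which is also on the list of other milk proteins and was the brightest luminal marker on lactation day 7. The beta-actin 3′ to 5′ ratio was 2.25 ± 0.455 (SD, n = 3) before birth and 1.60 ± 0.172 (SD, n = 3) after it. The part of these values in the casein differences was not tested.

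Within lactation each casein was highest on day 7. *Csn1s2b* signals were 3304.8, 5539.1 and 6307.7 on day 3 and 8970.3, 7844.7 and 8689.1 on day 7. *Csn1s1* signals were 10950.2, 15245.6 and 12861.8 on day 3 and 15863.7, 15587.9 and 15929.5 on day 7. *Csn2* signals on day 7 were 9447.3, 9006.6 and 8765.3, *Csn1s2a* signals 13576.1, 11998.2 and 11768.3 and *Csn3* signals 12693.4, 11394.9 and 12001.5. The mice of day 7 lay above those of day 1 for all 5 caseins, which share the same arrays and scaling. The differences were 1.22 ± 0.44 (SE) on the log2 scale for *Csn1s2b* (adjusted p = 0.10) and 0.38 to 0.51 for the others. None passed the test, against 5.29% of all probe sets called in either direction. At the looser threshold of an unadjusted p under 0.05, 1 did. *Csn1s2b* was called with the floor at the 40th percentile. Quantile normalization left 0.72 for *Csn1s2b* and -0.09 to 0.10 for the others, so the direction between lactation days 1 and 7 flips for *Csn3* under it.

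By involution day 2 all 5 caseins were lower than on lactation day 7 by a like factor. *Csn1s1* signals were 9255.4, 8380.5 and 8146.7, *Csn2* signals 5485.5, 4593.7 and 4257.5 and *Csn3* signals 7261.1, 6314.2 and 6501.4. *Csn1s2a* signals were 6793.3, 5353.9 and 6150.3 and *Csn1s2b* signals 4832.1, 3612.4 and 4268.3. Every mouse of involution day 2 was below every mouse of lactation day 7 for each gene. The log2 difference was -0.88 for *Csn1s1*, -0.93 for *Csn2*, -1.03 for *Csn1s2a*, -1.01 for *Csn1s2b* and -0.85 for *Csn3*. No casein passed the test in the fit over all time points, against 31.9% of all probe sets called in either direction. At the looser threshold of an unadjusted p under 0.05, 1 did. All 5 were called lower in a fit of only the 6 arrays compared, beside 14.7% of all probe sets in that fit. Without the early time points 4 were, *Csn1s2b* being the exception, beside 16.0% of all probe sets. *Csn1s2b* was called with the floor at the 40th percentile. Quantile normalization reduced the differences to between -0.31 and -0.11. The mean of the arrays' 99th percentile of signal was higher on lactation day 7 than at any other time point, though 1 array of lactation day 3 lay above the lowest of day 7.

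In this comparison 7 of 12 luminal markers were called higher on involution day 2 than on lactation day 7 and none lower, with a summed signal of 8272 to 8450 against 6614 to 7182. All 8 fibroblast and all 6 macrophage markers were also called higher. Of all probe sets 17.2% were called higher and 14.7% lower. The part of these in the casein values was not tested.

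Between involution days 2 and 4 *Csn1s2b* fell. Its signals were 3069.0, 3365.4 and 3405.3 on day 3 and 354.0, 1114.8 and 1407.8 on day 4. From day 2 to day 4 it fell 5.12-fold (-2.36 ± 0.44 SE on the log2 scale, adjusted p = 0.0005). It was the 1 casein called lower, against 2.34% of all probe sets, and in a fit of only the 6 arrays compared it just missed the threshold (adjusted p = 0.053, with a range of 1.4e-05 to 0.053 over its alternatives). *Csn1s2a* signals were 2964.0, 3988.4 and 4097.3 on day 4, a log2 difference of -0.74 ± 0.64 (SE) that was called only without the early time points. *Csn1s1* signals were 6148.3, 6375.3 and 6679.7, *Csn2* signals 3519.0, 3475.9 and 3751.5 and *Csn3* signals 5792.4, 4717.1 and 5872.8, all below those of day 2 by 1.23-fold to 1.34-fold. Under quantile normalization the log2 differences were 0.004 for *Csn1s1*, -0.03 for *Csn3*, -0.22 for *Csn2* and -0.50 for *Csn1s2a*. That of *Csn1s2b* stayed at -2.35. Mouse A had the lowest *Csn1s2b* and the lowest *Csn1s2a* of day 4. Over these days 4 of 6 macrophage, 4 of 8 white adipocyte and 3 of 8 fibroblast markers were called higher and none of these lower, against 3.96% of all probe sets called higher. The summed white adipocyte signal went from between 4841 and 7038 to between 10436 and 12132. Of the luminal markers 1 of 12 was called lower (*Ehf*), and their summed signal was 8272 to 8450 on day 2 and 5442 to 8472 on day 4. The part of these in the fall of *Csn1s2b* was not tested.

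From involution day 4 to day 20 *Csn1s2b* and *Csn1s2a* fell. *Csn1s2b* signals were 14.9, 36.9 and 48.9, a fall of 27.4-fold from day 4 (-4.78 ± 0.44 SE on the log2 scale, adjusted p = 1.2e-10). *Csn1s2a* signals were 707.2, 807.9 and 961.1, a fall of 4.45-fold (-2.15 ± 0.64 SE, adjusted p = 0.016). *Csn2* signals were 991.1, 1474.9 and 1913.8, below all mice of day 4 by 2.54-fold without passing the test (adjusted p = 0.18). *Csn3* signals were 2938.9, 3543.6 and 3843.3 and *Csn1s1* signals 4840.0, 5141.1 and 6055.6, below day 4 by 1.59-fold and 1.20-fold. The 2 caseins called lower stand beside 8.54% of all probe sets. *Csn2* was also called lower with array quality weights, with either covariate, in a fit of only the 6 arrays compared and without the early time points. Over all its alternatives its adjusted p ran from 4.6e-06 to 0.47. The call of *Csn1s2a* was lost with no floor, where its adjusted p was 0.073 (range 2e-08 to 0.073 over its alternatives), and without mouse C of day 4 or mouse A of day 20. Luminal markers moved with these caseins: 7 of 12 were called lower and none higher, with a median log2 difference of -1.48 against -0.02 for all probe sets. Their summed signal was between 5442 and 8472 on day 4 and between 1780 and 3081 on day 20. The white adipocyte sum was 10436 to 12132 on day 4 and 16849 to 19097 on day 20. The part of these in the casein falls was not tested.

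**Figure D2:**
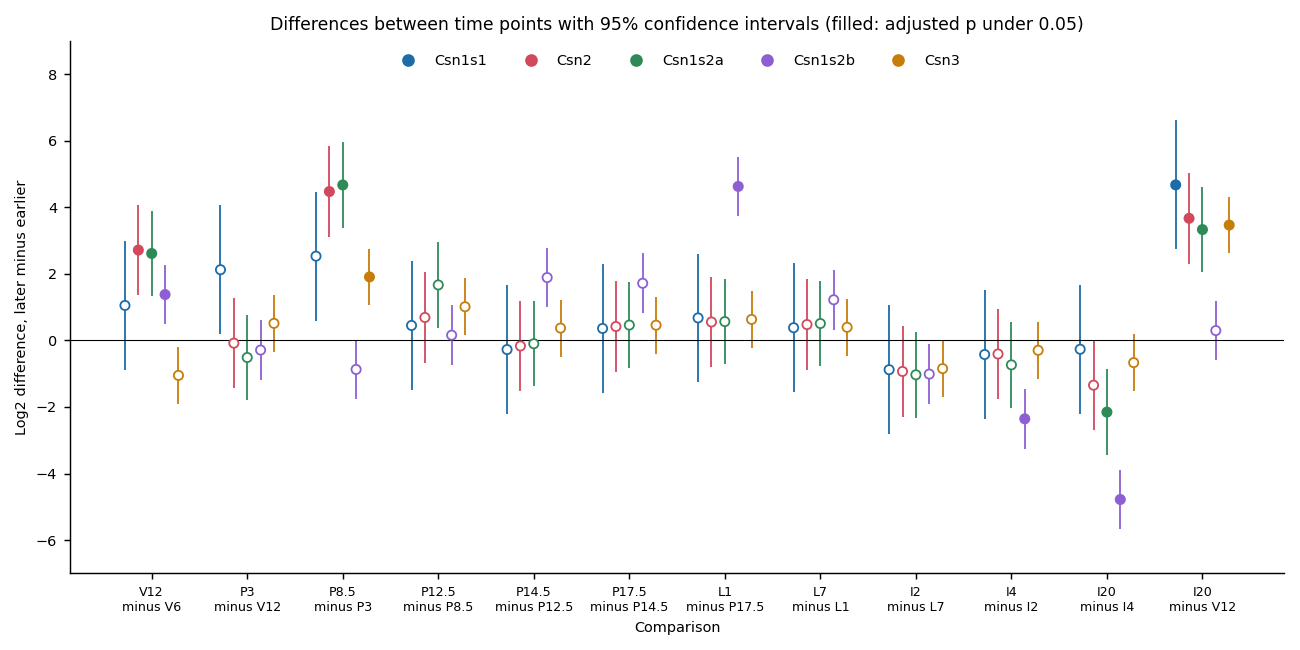
Log2 difference (later minus earlier time point) of each casein in 12 comparisons, with 95% confidence intervals from limma over all 54 arrays; filled points have an adjusted p under 0.05. Pregnancy day 8.5 minus day 3 lifts *Csn2*, *Csn1s2a* and *Csn3*, lactation day 1 minus pregnancy day 17.5 lifts *Csn1s2b* by 4.62, and *Csn1s2b* falls most in involution.

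On involution day 20, *Csn1s1*, *Csn2*, *Csn1s2a* and *Csn3* were above their level in 12-week virgins. *Csn1s1* was 25.5-fold higher (4.67 ± 0.96 SE on the log2 scale, adjusted p = 0.0018). *Csn2* was 12.7-fold higher (3.67 ± 0.67 SE, adjusted p = 0.00034), *Csn3* 11.0-fold higher (3.46 ± 0.42 SE, adjusted p = 1.8e-07) and *Csn1s2a* 10.0-fold higher (3.33 ± 0.64 SE, adjusted p = 0.00067). No mouse overlapped between these time points for these 4 genes. The mice of day 20 were older than the 12-week virgins and had borne a litter. Age and past pregnancy cannot be told apart in this comparison. *Csn2* of day 20, at 991.1 to 1913.8, did overlap with 10-week virgins, where mouse A had 1065.3, and *Csn3* averaged 643 at 6 weeks against 389 at 12 weeks. *Csn1s1* was 4840.0 to 6055.6 on day 20, against 3445.5, 2750.1 and 16.0 in the 10-week mice. *Csn1s2b*, at 14.9 to 48.9 against 19.6 to 28.9, overlapped, with a log2 difference of 0.30 (95% interval -0.60 to 1.19). The 4 of 5 caseins called higher stand beside 1.27% of all probe sets. In a fit of only the 6 arrays compared 3 were called, beside 0.880% of all probe sets called higher. *Csn3* missed the threshold there at an adjusted p of 0.052 (range 1.1e-10 to 0.052 over its alternatives). Over the same interval 0 of 12 luminal markers were called in either direction, against 1.27% of all probe sets called higher and 1.37% lower, and their summed signal was 2874 to 4742 in 12-week virgins and 1780 to 3081 on involution day 20. Of 13 other milk protein genes 3 were called higher (*Btn1a1*, *Cel* and *Ltf*) and 1 lower (*Glycam1*).

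Read as a percent of its own mean on lactation day 7, each casein gave an order of onset. From pregnancy day 1 on, the mean passed 10% for good on pregnancy day 8.5 for *Csn1s1*, *Csn2*, *Csn1s2a* and *Csn3* and on lactation day 1 for *Csn1s2b*. On day 8.5 the share was 34.3% ± 11.0 (SD, n = 3) for *Csn1s1*, 26.1% ± 6.57 for *Csn2*, 13.8% ± 1.70 for *Csn3* and 12.3% ± 4.39 for *Csn1s2a*. *Csn1s1* and *Csn2* differed by less than their spread there, as did *Csn3* and *Csn1s2a*. *Csn1s2b* stood at 0.131% ± 0.0360 on that day. Before that, *Csn3* had been at 11.0% ± 2.97 on pregnancy day 1 and at 3.71% ± 0.622 on day 3. Virgins were left out of this order: at 10 weeks *Csn1s1* averaged 13.1% ± 11.5 and *Csn2* 6.55% ± 5.87. By day 14.5 the 4 early caseins had drawn level on the deposited scale, at 37.8% ± 5.62 for *Csn1s1*, 36.9% ± 4.35 for *Csn2*, 36.1% ± 5.53 for *Csn3* and 34.8% ± 5.36 for *Csn1s2a*, with *Csn1s2b* at 0.537% ± 0.112. Quantile normalization set *Csn1s1* apart on that day, at 79.8%. It gave 66.3% for *Csn1s2a*, 64.2% for *Csn3* and 62.0% for *Csn2*, so the levelling depends on scaling. On lactation day 1 the 4 lay between 70.3% and 76.9% and *Csn1s2b* at 47.7% ± 22.8. The mean of *Csn1s2b* passed 50% on lactation day 3 and those of the others on lactation day 1, a step within the spread of the mice, since *Csn1s2b* was 1811.4 in mouse A of day 1 against 5180.4 and 5161.8 in the other 2.

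The same measure gave the order of decline. On involution day 1 the shares were 58.8% ± 9.51 for *Csn1s1*, 57.2% ± 3.17 for *Csn3* and 54.1% ± 2.68 for *Csn1s2b*. They were 52.2% ± 5.24 for *Csn2* and 50.4% ± 2.04 for *Csn1s2a* on that day. On day 2 the 5 caseins lay between 49.0% and 55.6%, so most of the drop seen by day 2 was there on day 1. *Csn1s2a* and *Csn1s2b* were first under 50% on involution day 2, at 49.0% ± 5.79 and 49.8% ± 7.18, *Csn1s1* and *Csn2* on day 3 and *Csn3* on day 4. These first steps lie within the spread of the mice. On day 4 the shares were 45.4% ± 5.36 for *Csn3*, 40.5% ± 1.69 for *Csn1s1*, 39.5% ± 1.63 for *Csn2*, 29.6% ± 5.02 for *Csn1s2a* and 11.3% ± 6.40 for *Csn1s2b*. On day 20 they were 33.8% ± 4.01 for *Csn1s1*, 28.6% ± 3.83 for *Csn3*, 16.1% ± 5.09 for *Csn2*, 6.63% ± 1.03 for *Csn1s2a* and 0.395% ± 0.203 for *Csn1s2b*. In that order each gene on day 20 was below the one before it by more than its own SD. These percentages depend on scaling: under quantile normalization they became 79.8% for *Csn1s1* on pregnancy day 14.5 and 85.2% on involution day 4, and 0.921% and 18.3% for *Csn1s2b*.

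**Figure D3:**
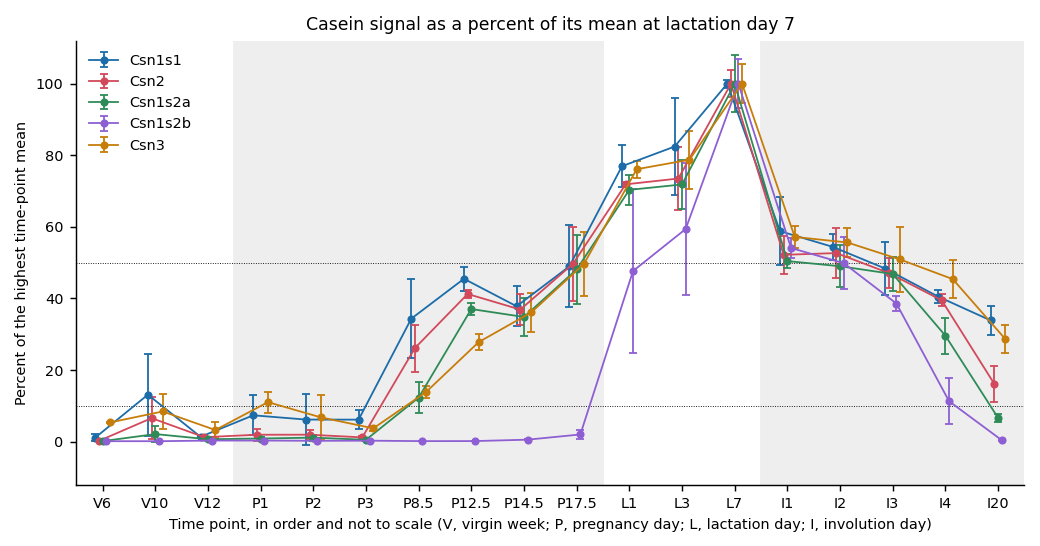
Mean signal of each casein as a percent of its lactation day 7 mean (linear axis) against the 18 time points in order, with error bars of 1 SD over 3 mice and dotted lines at 10% and 50%; grey bands mark pregnancy and involution. *Csn1s2b* is at 0.537% on pregnancy day 14.5, where the other 4 are at 34.8% to 37.8%, and is the lowest from involution day 3 on.

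To ask whether the caseins moved in step, the log2 difference of *Csn3* on the same arrays was taken from that of each other casein. From 12-week virgins to pregnancy day 14.5, *Csn3* itself was higher by 3.80 on the log2 scale. *Csn1s2a* was higher by 1.92 ± 0.52 (SE) more than *Csn3* (adjusted p = 0.00037) and *Csn2* by 1.11 ± 0.54 more (adjusted p = 0.044). *Csn1s2b* differed from *Csn3* by -2.91 ± 0.62 (adjusted p = 9.4e-06), and *Csn1s1* differed from it by 1.03 ± 0.66 (adjusted p = 0.13). That 3 of 4 caseins differed stands beside 99.7% of all probe sets, since few genes rose as *Csn3* did. With so many called, here and from 12-week virgins to involution day 20, the adjustment hardly changes a p-value. These adjusted p-values are therefore close to unadjusted ones. The spread of *Csn3* itself, with an SD of 1.30 on the log2 scale at 12 weeks, enters every difference. The call of *Csn2* was lost with quantile normalization, without an intensity trend, with beta-actin as a covariate and in a fit of only the arrays compared, and when mouse A or C of week 12 or any 1 mouse of day 14.5 was left out. With array quality weights none of the 3 passed, at 2.06 for *Csn2* (adjusted p = 0.19, range 0.0013 to 0.30 over its alternatives), 2.89 for *Csn1s2a* (adjusted p = 0.17, range 1.8e-06 to 0.17) and -1.83 for *Csn1s2b* (adjusted p = 0.44, range 3.3e-08 to 0.44).

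From pregnancy day 14.5 to lactation day 7, *Csn1s2b* was higher by 6.08 ± 0.62 (SE) more than *Csn3* (adjusted p = 7.4e-13), while *Csn3* was higher by 1.48. *Csn1s1*, *Csn2* and *Csn1s2a* differed from *Csn3* by -0.07, -0.03 and 0.05, with 95% intervals of -1.39 to 1.26, -1.12 to 1.05 and -0.98 to 1.08. Of all probe sets 57.7% differed from *Csn3* over this interval. From lactation day 7 to involution day 4, *Csn1s2b* differed from *Csn3* by -2.22 ± 0.62 (adjusted p = 0.0027), against 42.3% of all probe sets called. The call was lost without mouse A of involution day 4, the lowest for *Csn1s2b* on that day. *Csn1s2a* differed from *Csn3* by -0.62 (95% interval -1.65 to 0.40), *Csn2* by -0.20 (-1.28 to 0.88) and *Csn1s1* by -0.16 (-1.48 to 1.16). From 12-week virgins to involution day 20, *Csn1s2b* differed from *Csn3* by -3.17 ± 0.62 (adjusted p = 2e-06), against 99.3% of all probe sets called. That call was lost with array quality weights, at -1.87 (adjusted p = 0.44, range 3.9e-09 to 0.44 over its alternatives). *Csn1s1* differed by 1.21 (-0.11 to 2.53), *Csn2* by 0.20 (-0.88 to 1.28) and *Csn1s2a* by -0.14 (-1.16 to 0.89).

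**Figure D4:**
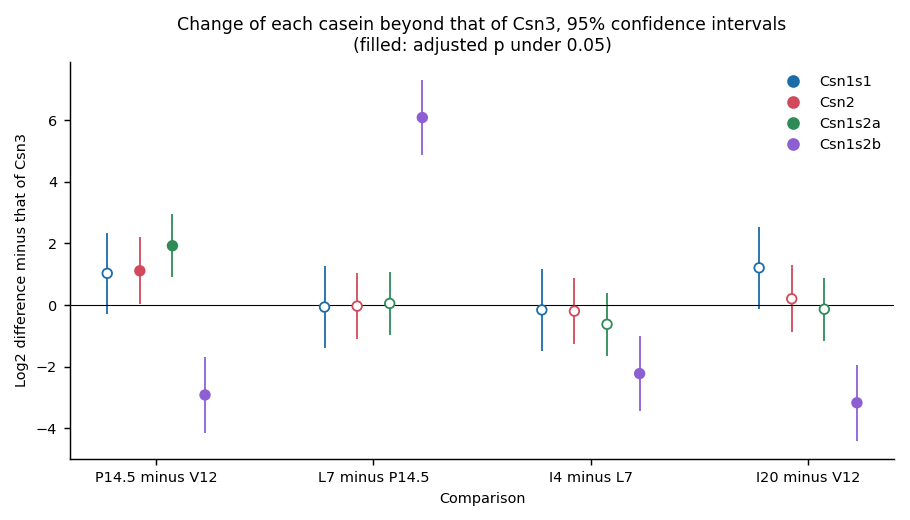
Log2 difference of *Csn1s1*, *Csn2*, *Csn1s2a* and *Csn1s2b* minus that of *Csn3* on the same arrays in 4 comparisons, with 95% confidence intervals; filled points have an adjusted p under 0.05. In this fit, without array quality weights, *Csn1s2b* stands off zero in all 4, from -3.17 to 6.08, while *Csn1s1* does in none.

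Mice of the same time point tended to be high or low for several caseins together. Over the 54 arrays, the deviations of log2 signal from the time-point mean correlated at r = 0.944 between *Csn1s2a* and *Csn2*, 0.913 between *Csn1s1* and *Csn1s2a* and 0.895 between *Csn1s1* and *Csn2*. With *Csn3* the correlations were 0.626 for *Csn1s1*, 0.595 for *Csn1s2a* and 0.552 for *Csn2*. *Csn1s2b* had correlations between -0.178 and 0.153 with the other 4. These are descriptions: the 2 genes of a pair share each array's RNA and scaling, the deviations of 3 mice sum to zero, and a few mice of the virgin and early pregnancy groups are far from the rest. Over the 18 time-point means, *Csn1s2a* and *Csn2* correlated at 0.993 and *Csn1s1* and *Csn2* at 0.977, while *Csn1s2b* correlated with the others at 0.705 to 0.811.

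The genes whose 18 time-point means of log2 signal followed each casein most closely were ranked by Pearson's r among 7765 other single-symbol probe sets. *Elf5*, which encodes an ETS-family transcription factor of alveolar differentiation, came first for *Csn1s2a* (r = 0.963), *Csn2* (r = 0.935) and *Csn1s1* (r = 0.918). It came after *Btn1a1*, the butyrophilin of the milk fat globule membrane, for *Csn3*, with r = 0.923 against 0.965. *Btn1a1* was next after *Elf5* for the other 3 early caseins, at 0.935 for *Csn1s2a*, 0.919 for *Csn2* and 0.907 for *Csn1s1*. The remaining places went to *Vdr*, *Plet1* and *Timd2* for *Csn1s1* (0.870 to 0.887) and for *Csn1s2a* (0.911 to 0.926), and to *Sin3b*, *Timd2* and *Plet1* for *Csn2* (0.889 to 0.897). For *Csn3* they were *Folr1*, the folate receptor, *Pigr*, which carries antibodies into milk, and *Rhpn2* (0.919 to 0.921). *Csn1s2b* shared none of these genes. Its nearest were *St6galnac2*, a sialyltransferase (r = 0.984), *Mfge8*, a milk fat globule protein (0.972), *Lalba*, the alpha-lactalbumin of lactose synthase (0.970), *Wwp2* and *Ceacam10* (both 0.969).

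The *Elf5* signal showed the shape of that likeness. It was 83.0, 62.9 and 163.2 on pregnancy day 3, 232.2, 225.6 and 328.5 on day 8.5 and 667.2, 861.7 and 831.3 on day 12.5. Both steps were called, at 1.45 ± 0.29 (SE) on the log2 scale (adjusted p = 0.0016) and 1.60 ± 0.29 (adjusted p = 0.0019). *Elf5* was lower on involution day 2 than on lactation day 7 (-0.93 ± 0.29 SE, adjusted p = 0.012), lower again from involution day 4 to day 20 (-2.07 ± 0.29 SE, adjusted p = 1.9e-06) and on day 20 still above 12-week virgins (1.00 ± 0.29 SE, adjusted p = 0.049).

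*Lalba* was at most 130 in any mouse up to pregnancy day 12.5. Its signals were 5.0, 2.9 and 27.7 on day 12.5, 323.8, 194.3 and 355.5 on day 14.5 and 1029, 600.5 and 1839.4 on day 17.5. On lactation day 1 they were 8004, 9055.1 and 8456.4. *Lalba* rose from day 12.5 to day 14.5 by at least 4.39 on the log2 scale, with 2 mice of day 12.5 set to the floor (fitted SE 0.72, adjusted p = 0.00069), and across birth (3.02 ± 0.72 SE, adjusted p = 0.0018). *Wap*, the whey acidic protein, rose 1 step earlier than *Lalba* (5.25 ± 0.78 SE, adjusted p = 8.4e-05), from 23.1, 50.3 and 15.7 on day 8.5 to 870, 1532.4 and 754.9 on day 12.5.

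**Figure D5:**
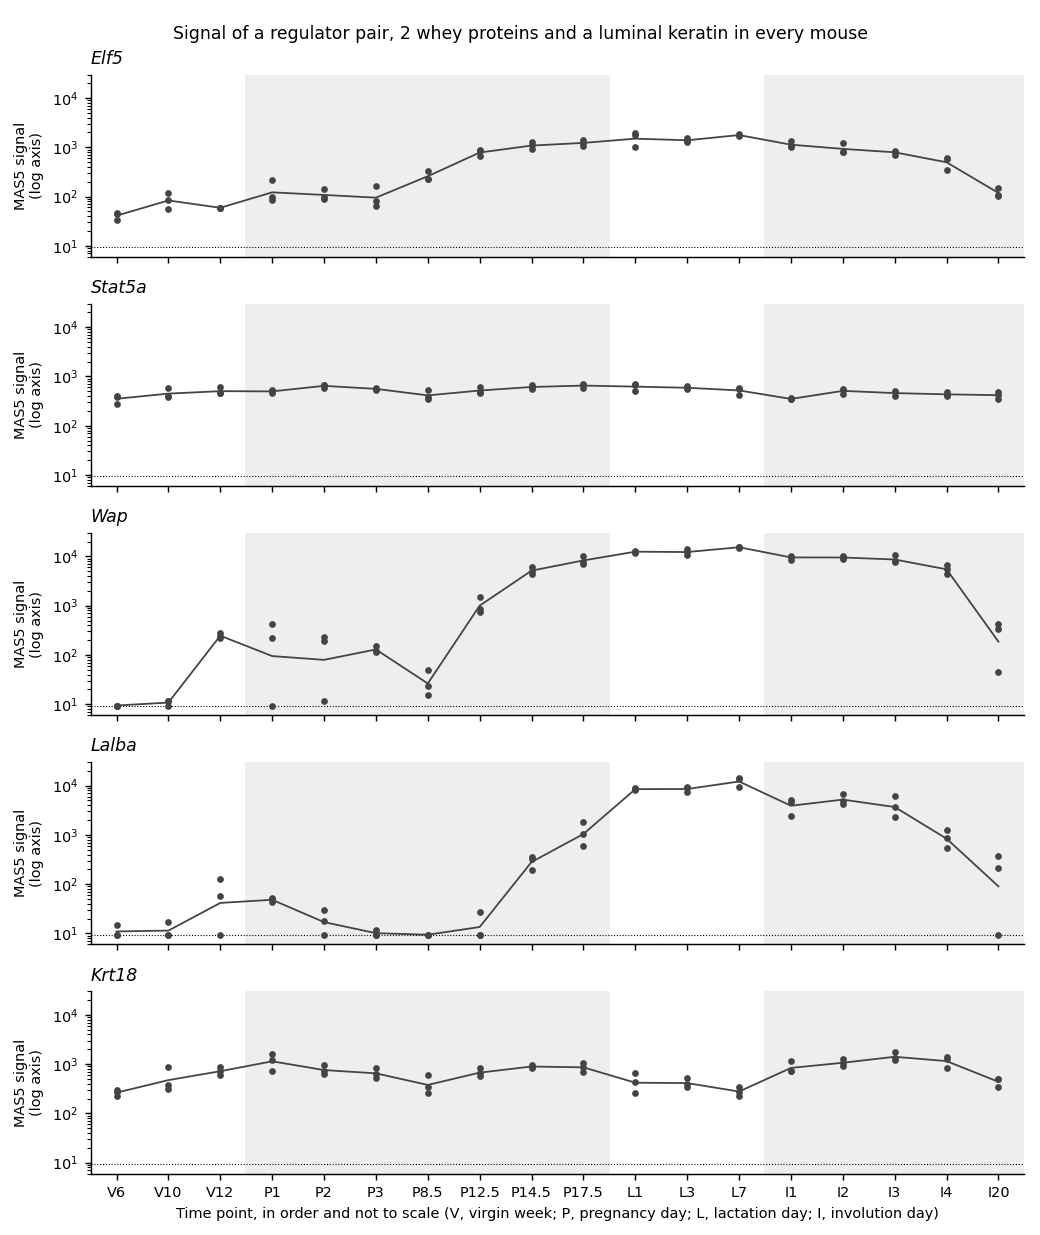
MAS5 signal (log axis) of *Elf5* and *Stat5a* (regulators), *Wap* and *Lalba* (whey proteins) and *Krt18* (luminal keratin) against the 18 time points in order, with 1 point for each of 54 mice, a line through the geometric means and a dotted line at the floor of 9.4; grey bands mark pregnancy and involution. *Elf5* climbs through mid-pregnancy, *Lalba* stays at or under 130 until pregnancy day 12.5, and *Krt18* is low on lactation day 7, where the caseins are highest.

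Of 20 measured regulators of casein transcription, *Elf5* was the 1 called higher from pregnancy day 3 to day 8.5 and 3 were called lower (*Nfic*, *Ptpn1* and *Stat3*). These counts are near the 5.39% and 12.5% of all probe sets called. Across birth *Esr1* was called higher and *Socs2*, an inhibitor of cytokine signalling, lower, against 10.1% and 13.2% of all probe sets, and the list's median difference was -0.11 against 0.00. *Stat5a*, a prolactin-activated factor, was called only between 6 and 12 weeks of virginity (0.52 ± 0.17 SE on the log2 scale, adjusted p = 0.022). Its mean lay between 351 ± 11.3 (SD, n = 3) on involution day 1 and 655 ± 56.1 on pregnancy day 17.5. From lactation day 7 to involution day 2, *Cebpb*, *Cebpd*, *Socs3* and *Stat3* were called higher and *Elf5* and *Stat5b* lower, 4 and 2 of 20 beside 17.2% and 14.7% of all probe sets. *Socs3*, a feedback inhibitor of cytokine receptors, had the largest of these 6 differences (3.29 ± 0.33 SE, adjusted p = 2.1e-10). *Ybx1*, a repressor of casein promoters, was called lower only from 6 to 12 weeks. No single-symbol probe set was matched for *Prlr*, *Nr3c2*, *Pou2f1* or *Runx2*, and *Pgr* was too dim.

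Of 13 other milk protein genes, 8 were called higher across birth and 1 lower (*Lyz2*), against 10.1% and 13.2% of all probe sets, with a list median of 1.68 on the log2 scale against 0.00 for all probe sets. From involution day 4 to day 20, 10 of the 13 were called lower and none higher, against 8.54% of all probe sets called lower, with a median of -1.50 against -0.02. From pregnancy day 3 to day 8.5, where the early caseins rose, *Btn1a1* was the 1 called higher and *Wap* and *Mfge8* were called lower. These counts are near the 5.39% and 12.5% of all probe sets called higher and lower, and the median was -0.11 against -0.17.

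Of 19 measured genes that fold, phosphorylate, glycosylate and export caseins, 8 were called higher from pregnancy day 17.5 to lactation day 1 and none lower, among them *Sec61a1* and *Sec61b* of the translocation channel. The list median was 0.55 against 0.00, and 10.1% of all probe sets were called higher. *Galnt1*, which starts O-linked sugar chains, was called higher from pregnancy day 3 to day 8.5 and *Sec61a1* lower. *Fam20c*, the kinase that phosphorylates caseins, was called higher from day 12.5 to day 14.5 and lower from involution day 2 to day 4. From lactation day 7 to involution day 2, 7 were called higher, including the chaperones *Hspa5* and *Hsp90b1*, and 5 lower, against 17.2% and 14.7% of all probe sets. From involution day 2 to day 4, 4 were called lower, and from day 4 to day 20, 7 were, with none higher in either, against 2.34% and 8.54% of all probe sets.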

How the data were processed

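Expression was measured on 54 one-channel Affymetrix arrays, 1 for each mouse, in 18 time points of 3 mice. The intensity values were deposited by the authors as MAS5 signals, per the submitters' processing notes. The MAS5 version, the scaling target and the detection calls are not given in the sources used here. Of the 12488 probe sets on each array, 66 were controls. The platform annotation named 1 gene for 10833 probe sets, several for 396 and none for 1193, and no symbol needed updating.

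From these values, signals under 9.4 (the 25th percentile) were set to that floor and the log2 was taken. Probe sets above 22.8 (the 40th percentile) in all 3 mice of at least 1 time point were kept, 8640 in all. limma 3.58.1 in R 4.3.3 was fitted to all 54 arrays with a mean for each time point and an intensity trend, with Benjamini-Hochberg adjustment over the probe sets kept and a threshold of 0.05. Fold changes are 2 to the power of the log2 difference of means, and percentages and spans are of arithmetic means. For the comparison with *Csn3*, each array's log2 signal of *Csn3* was subtracted from every other probe set before the same fit. The steps were tested on simulated data. Letters A, B and C of the mice were not used to pair them: over 459 same-letter pairs of arrays the deviations correlated at a median of 0.013, and 66 were over 0.1. Files name the mice but not litters or cages.

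The caseins, gene lists, motifs and comparisons were chosen with earlier results of these data known. All members of each list were counted. Up to 4 of each list were to be named, by highest mean on lactation day 7, and others named here were chosen after their values were seen.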

Additional observations from a re-analysis of the deposited data

How the results depend on the processing

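All alternatives but 1 were listed with the design; the fit without virgin weeks 6 and 10 and pregnancy days 1 and 2 was chosen after seeing the data. The 5 caseins called over the 18 time points and the 4 called higher on involution day 20 than at 12 weeks, or 3 in the fit of only the arrays compared, kept their side of the threshold in the counts. Without the early time points, 1 casein was called higher on pregnancy day 3 than at 12 weeks, 1 from day 8.5 to day 12.5 and 3 across birth, and 4 were called lower from lactation day 7 to involution day 2 and 2 from involution day 2 to day 4, while 2 differed from *Csn3* between 12-week virgins and involution day 20. Of all probe sets, that fit called 3.22%, 0.440% and 11.6% higher in the first 3 comparisons and 16.0% and 2.84% lower in the next 2. In fits of only the arrays compared, 1 was called higher on pregnancy day 3, 5 lower on involution day 2 and 0 lower from involution day 2 to day 4, and 2 differed from *Csn3* between lactation day 7 and involution day 4. The shares of all probe sets beside the first 3 counts were 2.70% higher, 14.7% lower and 1.61% lower. For all other alternatives, here, above and below, the share of all probe sets called was not worked out. Nor was it for the comparisons with *Csn3* outside the main fit. Whether those counts changed more for the caseins than for all probe sets is therefore not known. With array quality weights, 1 casein was called lower from 6 to 12 weeks, 1 higher on pregnancy day 3, 2 from day 8.5 to day 12.5, 1 from day 12.5 to day 14.5 and 1 from day 14.5 to day 17.5. In the comparisons with *Csn3* the weights gave 0 for pregnancy day 14.5 minus 12 weeks, 2 for involution day 4 minus lactation day 7 and 0 for involution day 20 minus 12 weeks. The floor at the 40th percentile gave 1 higher from pregnancy day 14.5 to day 17.5, 1 higher from lactation day 1 to day 7, 1 lower on involution day 2 and 2 differing from *Csn3* on involution day 20, and no floor gave 1 lower from involution day 4 to day 20. Median scaling gave 1 lower from 6 to 12 weeks and 1 higher from pregnancy day 12.5 to day 14.5. With *Krt8* and *Krt18* as a covariate, 2 differed from *Csn3* from pregnancy day 14.5 to lactation day 7 and 2 from lactation day 7 to involution day 4. In the second of these *Csn1s1* reversed against *Csn3*, from -0.16 to 2.16 (adjusted p = 0.046). With the replicate block, which treats the letters A, B and C as paired, 1 casein was called lower from 6 to 12 weeks (*Csn3*, -1.05, adjusted p = 0.050), and the block changed no other count. The cause of these changes was not tested, except that fits of fewer arrays have fewer residual degrees of freedom.

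Quantile normalization moved the percent of the highest mean most. On pregnancy day 14.5 it gave 79.8% for *Csn1s1*, 62.0% for *Csn2*, 66.3% for *Csn1s2a*, 0.921% for *Csn1s2b* and 64.2% for *Csn3*. On involution day 4 it gave 85.2%, 70.1%, 58.8%, 18.3% and 85.8% in the same order. Median scaling gave *Csn2* 41.6% on pregnancy day 14.5. Quantile normalization by construction equalises the brightest signals, among which the caseins lie.

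Leaving out 1 array of a comparison at a time gave 2 to 3 caseins higher and 0 to 1 lower at 12 weeks against 6 weeks, 3 higher from pregnancy day 3 to day 8.5, 0 to 1 higher from day 14.5 to day 17.5, 1 higher across birth, 1 lower from involution day 2 to day 4, 1 to 2 lower from day 4 to day 20 and 4 higher on day 20 than at 12 weeks. Those differing from *Csn3* numbered 2 to 4, 1, 0 to 1 and 1 to 2 in the 4 comparisons in time order. Leaving out any 1 mouse of week 12 or of pregnancy day 14.5 changed a count. So did leaving out mouse C of pregnancy day 17.5, mouse A or C of involution day 4 or mouse A of involution day 20. For the mice of day 14.5 and mouse A of week 12, only the call of *Csn2* against *Csn3* changed. The percent of the highest mean on pregnancy day 14.5 ran from 35.7% to 41.0% for *Csn1s1*, 35.0% to 39.3% for *Csn2*, 32.8% to 37.9% for *Csn1s2a*, 0.478% to 0.590% for *Csn1s2b* and 33.6% to 39.1% for *Csn3*. On involution day 4 it ran from 39.6% to 41.3%, 38.5% to 40.3%, 27.9% to 32.5%, 8.64% to 14.8% and 43.7% to 48.5% in the same order. Of 983 single-gene values under the other settings, 924 kept their call, 44 passed the threshold only there, 14 lost it and 1 reversed.

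Limits are the 3 mice for each time point, the single probe set of each gene, the missing detection and saturation flags, and the dependence of differences between bright signals on scaling.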
